A study of Mus musculus with 16 samples.

Results

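Transcription by RNA polymerase II begins when general transcription factors assemble with the polymerase at a promoter, and the Mediator complex passes signals from enhancer-bound activators to that assembly. The 45 genes examined here encode Mediator and the general transcription factors other than TFIID, and they were chosen by name from the 27807 genes of the deposited table, where each name was found under a single identifier. By role they comprised 3 genes for TFIIA, TFIIB and a TBP-related factor, 4 for TFIIE and TFIIF, 6 for the core of TFIIH, and 7, 9, 10 and 6 genes for the head, middle, tail and kinase module of Mediator.

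Poly-A RNA was sequenced from mouse embryonic stem (ES) cells that were wild-type (WT) or homozygous for a Taf4a allele lacking exons 11 and 12 (KO), lines derived from blastocysts of heterozygous crosses. Taf4a encodes a core subunit of TFIID, the factor that carries the TATA-binding protein (TBP) to promoters. Cells of each genotype were collected as ES cells, grown with LIF on mouse embryonic fibroblast feeders, and as embryoid bodies (floating aggregates) before retinoic acid (EB4), a day into retinoic acid treatment (EB5) and later in it (EB8), in a protocol that yields neurons. This gave 8 groups of 2 libraries, 16 in all, with no age to report for cell lines. Independent lines, 2 of each genotype, are listed for the series, but the labels give only a replicate number. The p-values thus measure the spread between libraries that may or may not be separate lines. Same-numbered libraries resembled each other across the KO stages and across the WT embryoid body stages, as described further on. The main fit took all 16 libraries as independent, so comparisons at different stages are not independent repeats of each other.

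Libraries held 22442118 to 40711826 reads in genes. Every ES library was deeper (at least 32631020 reads) than every embryoid body library (at most 27685306), so stage and depth cannot be told apart in comparisons with ES cells. Taf4a itself was counted over all its exons, at 1591 to 1959.6 normalised reads in WT and 1973 to 2400.0 in KO libraries, which does not check the deletion of its internal exons. Summed over the 9 pluripotency markers examined, WT libraries held 115287 and 153177 normalised reads in ES cells and 5463 and 7155 at EB8, and KO libraries 145431 and 151585, then 33248 and 32259. Most of the WT sum at EB8 was Sox2, at 3950.5 and 5240.9, which overlapped with KO at 6517.1 and 3904.1. The 7 neural progenitor markers found summed to 30013 and 27869 at EB8 in WT and to 4969 and 4836 in KO, with Fabp7 at 3.2 and 1.1 and Hes5 at 14.8 and 5.3 in KO. For 3 neuronal markers the EB8 sums were 12899.6 and 16193 in WT and 1219 and 1200.5 in KO. Fibroblast markers (7 genes) summed to 1033 and 2650.2 in WT ES cells and to 209 and 494 in KO ES cells, and 8 endoderm and mesoderm markers ranged from 231 to 2189 over all libraries, with 1846 and 1543 at EB8 in WT beside 684 and 652 for KO. Pluripotency markers were already apart at EB4 (65783 and 40489 for WT, 98989 and 123975 for KO) and EB5 (22932 and 16619, then 54100 and 78743), and so were neural progenitor markers (11707 and 10774 against 5393 and 3358 at EB4, and 16491 and 24754 against 8450.4 and 4931 at EB5). In ES cells the neuronal sums were 2406.5 and 2840.7 in WT and 4313.4 and 4431.9 in KO. Most of each sum was Tubb3, at 2180.8 and 2262.7 in WT and 4004.6 and 3991.0 in KO. The other neuronal markers overlapped, Dcx at 13.7 and 4.8 against 1.7 and 5.7 and Ncam1 at 212.1 and 573.2 against 307.2 and 435.3. Neural progenitor sums there were 7513.4 and 2353.6 in WT, apart between replicates, and 3759.7 and 2279.9 in KO. In ES cells the pluripotency and neural progenitor sums overlapped between genotypes, and the fibroblast and neuronal sums did not. Single pluripotency markers could still separate there. Klf4 (2928.9 and 3598.9 in WT, 5474.8 and 5537.6 in KO), Esrrb, Pou5f1 and Zfp42 were higher in both KO libraries, and the others overlapped. The WT ES replicates themselves were apart for Nanog (6241.9 and 22356.7) and Dppa5a (13360.3 and 38420.3). Some marker levels thus differed between genotypes at every stage, and their part in the differences reported was not tested. In such bulk samples a lower level in fewer cells and a lower level in each cell cannot be told apart.

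The general factors act in an order known from biochemistry. TFIIA, made from the Gtf2a1 precursor and Gtf2a2, steadies TBP on DNA. TFIIB (Gtf2b) then joins the polymerase to it, TFIIF (Gtf2f1 and Gtf2f2) escorts the polymerase, and TFIIE (Gtf2e1 and Gtf2e2) recruits TFIIH. The Ercc3 subunit of TFIIH opens DNA at promoters, and Ercc3 and Ercc2 both act in nucleotide excision repair. Mediator contacts the polymerase with its head and middle and activators mainly with its tail, while its kinase module (Cdk8, cyclin C, Med12 and Med13 or their paralogues) binds reversibly and is best known for restraining the contact with the polymerase.

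Sequences upstream of a RefSeq transcription start of 3 of the genes are shown. They were picked because Gtf2a1 and Cdk8 differed between genotypes at EB8 and Tbpl1 rose with stage in WT, as described further on. Each is the 200 bases before the RefSeq transcription start, placed on build NCBI37, and capitals mark any match on either strand to TATAAA (the TATA box), to CCAAT (the CCAAT box), to CACGTG (an E-box) or to GGGCGG (a GC box).
Gtf2a1: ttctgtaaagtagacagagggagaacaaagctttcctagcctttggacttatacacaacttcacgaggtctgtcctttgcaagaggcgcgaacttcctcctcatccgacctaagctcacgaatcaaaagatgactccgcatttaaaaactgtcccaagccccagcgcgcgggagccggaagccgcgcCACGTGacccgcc
Cdk8: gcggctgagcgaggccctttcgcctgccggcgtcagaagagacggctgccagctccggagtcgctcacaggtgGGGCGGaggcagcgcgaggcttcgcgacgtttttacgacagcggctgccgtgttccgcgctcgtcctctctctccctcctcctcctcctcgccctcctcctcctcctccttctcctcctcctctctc
Tbpl1: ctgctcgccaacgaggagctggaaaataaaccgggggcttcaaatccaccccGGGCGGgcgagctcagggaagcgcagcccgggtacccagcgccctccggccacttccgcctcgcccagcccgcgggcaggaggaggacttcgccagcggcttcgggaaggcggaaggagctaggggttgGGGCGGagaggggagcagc
The first, before Gtf2a1, lies at chr12:92828928-92829127 on the minus strand and holds CACGTG with its first base 13 bases before the start. Upstream of Cdk8, at chr5:147042626-147042825 on the plus strand, GGGCGG stood 127 bases before the start, and 20 bases of the window lay in an annotated exon. The Tbpl1 window, at chr10:22451254-22451453 on the minus strand, held GGGCGG at 148 and at 19 bases. It lies inside the annotated span of Tbpl1, chr10:22423685-22451744, with 0 bases in an annotated exon. The RefSeq start used for Tbpl1 thus lies within the annotated gene. None of the 3 windows contained TATAAA or CCAAT. Among 32851 such windows of all genes, 9.96% held TATAAA, 29.3% CCAAT, 5.26% CACGTG and 31.0% GGGCGG. For 39 of the 45 genes 44 windows were found, and 2, 14, 4 and 23 of these windows held the letters. Ercc3, Gtf2e2, Med23, Med24, Med30 and Med8 were not matched. None of these motifs contains another, and the matches are letters and not sites of binding.

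All 45 genes had a mean of at least 10 normalised reads and were tested. Per kilobase of exon, Gtf2f1 (the large TFIIF subunit) had the highest mean level in WT ES cells, 2106 ± 850.0 normalised reads (SD, n = 2). Gtf2e2 followed at 1597 ± 83.5, which lies within the spread of Gtf2f1. Gtf2a1 stood 40th at 215.5 ± 26.4, close to Med26 at 224 ± 37.7 and Med7 at 206 ± 20.5. The lowest were Med10, at 40.3 ± 7.25, and Med12l, at 26.6 ± 2.26.

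**Figure D1:**
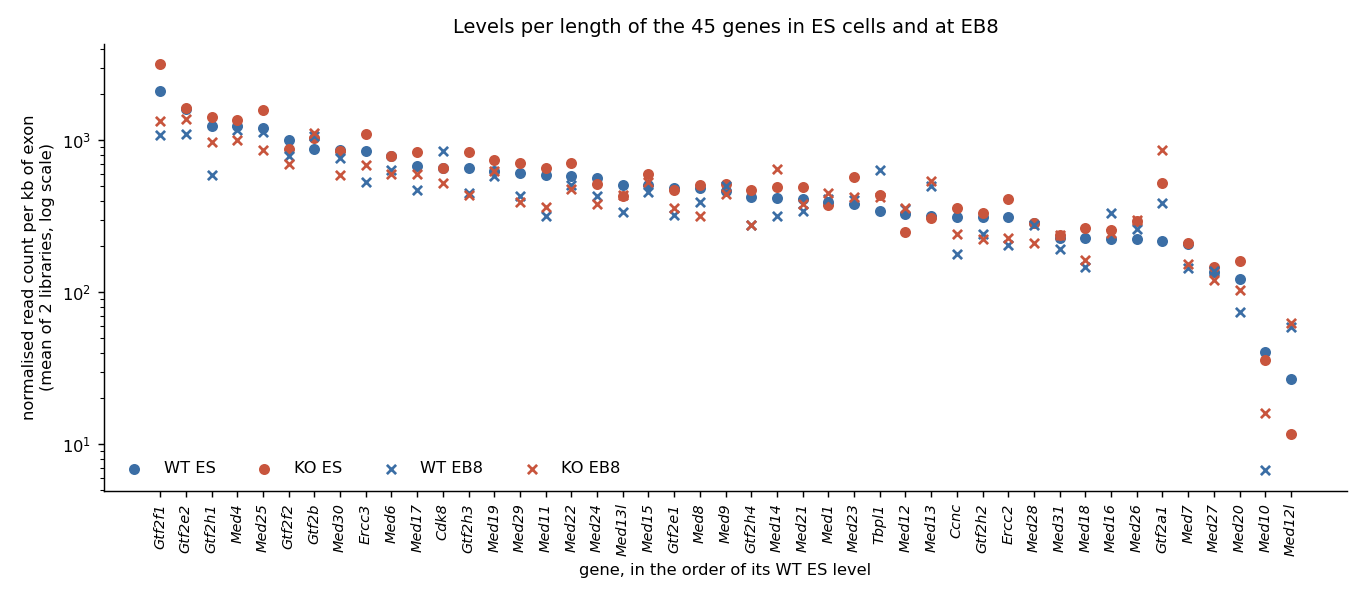
Normalised read count per kilobase of exon (log axis, mean of 2 libraries) of the 45 genes in WT (blue) and KO (red) ES cells (circles) and at EB8 (crosses). Genes are ordered by WT ES level. Gtf2a1 stands at 216 in WT ES and 386 in WT EB8, and at 518 in KO ES and 857 in KO EB8, and Med12l and Med10 lie lowest.

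The group means of these genes moved over a narrow range. Between the highest and lowest of the 8 groups, the median gene of the list spanned 0.79 on the log2 scale, beside 1.45 over the 16124 genes tested. A span above 1 was found for 11 of 45 genes (24.4%), beside 68.1% of all genes tested. Med10 (2.88), Med12l (2.41), Gtf2a1 (2.01) and Gtf2f1 (1.91) had the widest spans and Med9 (0.38) the narrowest. KO ES cells were the highest group for 27 of the 45 genes, and WT EB5 was the lowest group for 11. The matching shares over all genes tested were not computed, so these counts are not read as particular to the list.

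To ask how loss of Taf4a altered the transcription machinery, KO was compared with WT at each stage by limma on log2(normalised reads + 1). Genes with a Benjamini-Hochberg adjusted p under 0.05 over all genes tested were called. In ES cells no gene of the list was called and the background was 0% of all genes; 4 of 45 had an unadjusted p under 0.05 beside 11.4% of all genes, edgeR called 0 (0% of all genes) and DESeq2 called 2 (Gtf2a1 and Med12l; 2.91% of all genes). Without WT ES replicate 1, limma called 2. At EB4, 3 genes were higher in KO (Gtf2a1, Med20 and Ccnc) and none lower, 6.67% beside 6.12% of all genes. At EB5, 1 gene was called (Gtf2a1, higher), 2.22% beside 4.34%. At EB8, Gtf2a1, Gtf2h1 and Med14 were higher and Cdk8 was lower, 4 of 45 or 8.89%, while 22.9% of all genes were called. In the 4 comparisons 6 different genes were called and 39 were called in none. Leaving out a single library lowered the EB4 count to 1 (either WT library, or KO replicate 1) or 0 (KO replicate 2), the EB5 count to 0 (KO replicate 2) and the EB8 count to 2 (KO replicate 2).

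The median log2 difference between KO and WT was 0.18 for the list and -0.003 for all genes in ES cells, 0.19 and -0.004 at EB4, 0.05 and -0.008 at EB5, and 0.10 and -0.03 at EB8. In ES cells 34 of 45 genes had a difference above 0, beside 49.6% of all genes, and at EB4 35 of 45 did, beside 49.5%. At EB5 and EB8 the counts were 26 and 27, beside 49.3% and 48.1%. With upper-quartile rescaling the counts were 30, 35, 28 and 33 in the order of the stages, and the median of all genes moved to 0.11 at EB8. Every KO library lay above every WT library for 18 genes in ES cells (40% beside 19% of all genes) and for 22 genes at EB4 (48.9% beside 25.3%), and for 15 and 14 genes at EB5 and EB8 (33.3% beside 26.7%, and 31.1% beside 30.4%). The reverse, every KO library below, held for 3, 2, 7 and 9 genes, beside 20.7%, 26.6%, 28.1% and 33.5% of all genes.

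**Figure D2:**
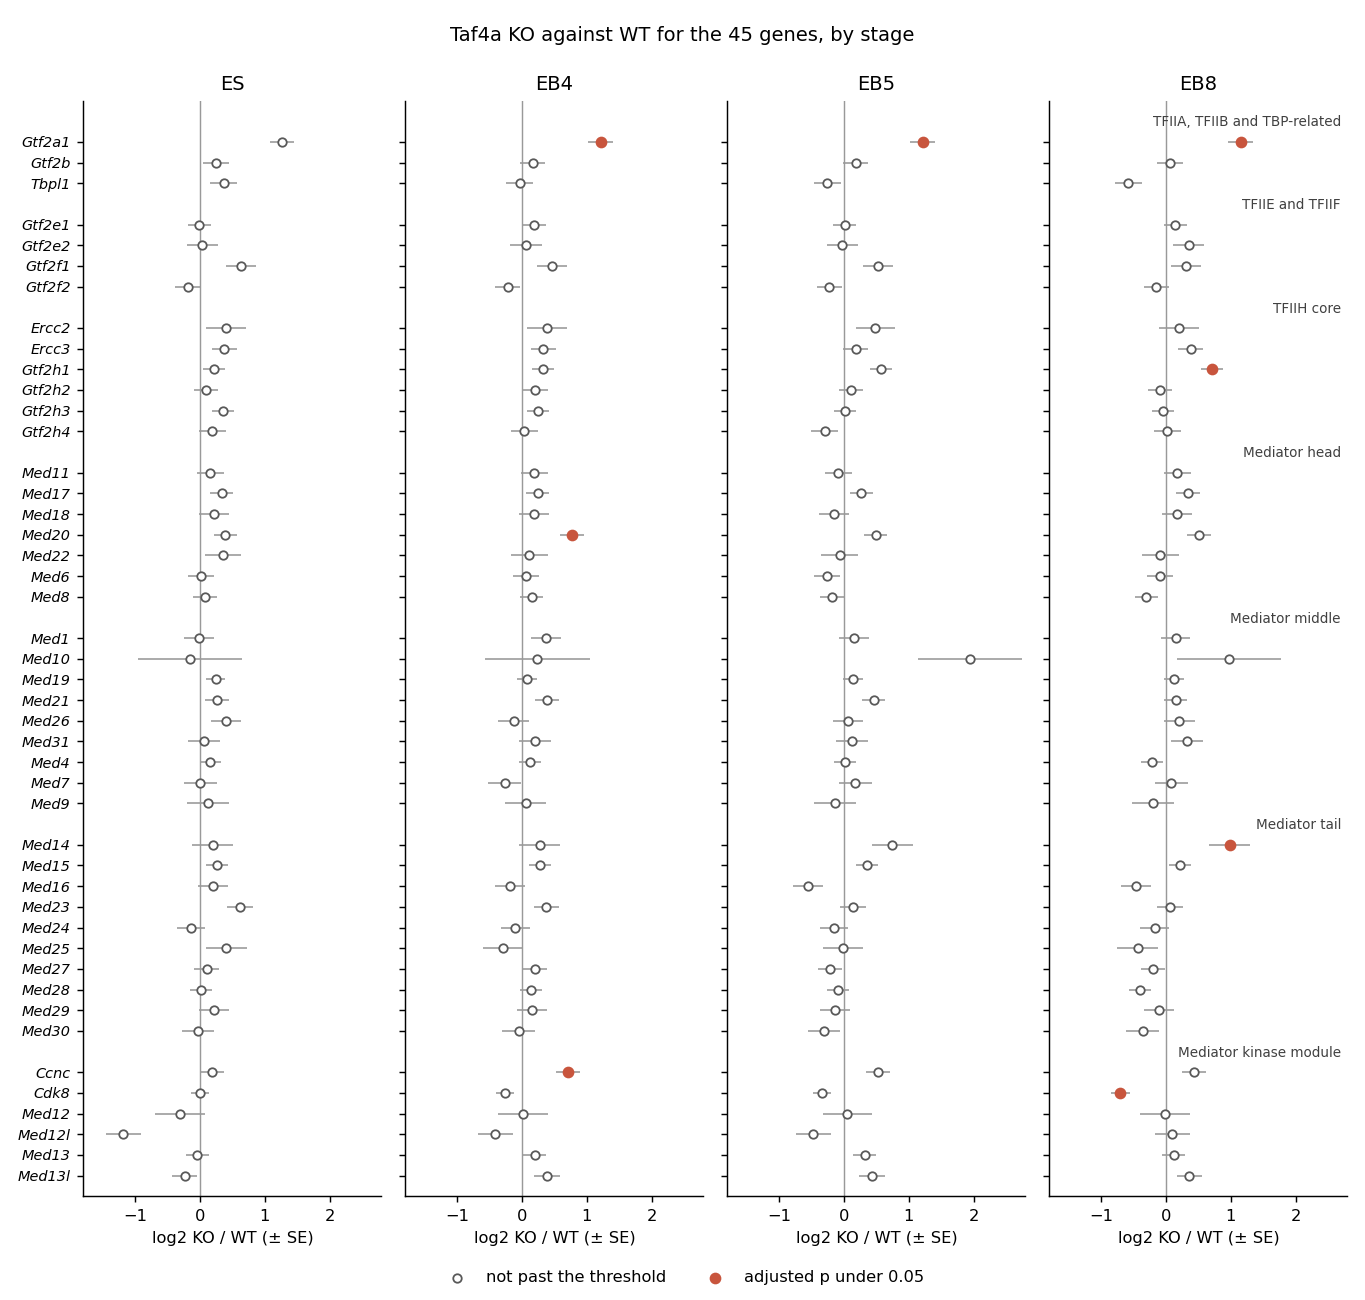
Log2 difference between KO and WT (horizontal axis, ± SE from the limma fit) for each of the 45 genes, grouped by role, in 4 panels by stage. Filled red points passed an adjusted p of 0.05. Gtf2a1 is the only gene filled at all of EB4, EB5 and EB8, at 1.15 to 1.21. Med20 and Ccnc are also filled at EB4, and Gtf2h1, Med14 and Cdk8 at EB8, and no point is filled in ES cells.

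Gtf2a1 (ENSMUSG00000020962, chr12:92794356-92828927, minus strand), which encodes the precursor cleaved into the large TFIIA subunits, was higher in KO at every stage. In ES cells it counted 1099.5 and 1308 normalised reads in WT and 3028 and 2759.5 in KO. The WT libraries of EB4 gave 1692 and 1984 and the KO libraries 3891 and 4643, and those of EB5 gave 1798 and 2420.3 against 5473 and 4278. At EB8 WT libraries held 2055 and 2259 and KO libraries 4545 and 5035. The lowest KO library of any stage was above the highest WT library of any stage. The difference was 1.21 ± 0.19 (log2, SE) at EB4, 1.21 at EB5 and 1.15 at EB8, a 2.32-, 2.32- and 2.22-fold higher level, with adjusted p-values of 0.0085, 0.00999 and 0.0012. In ES cells the difference was as large, 1.27 ± 0.19 or 2.41-fold, but its adjusted p was 0.0519. It passed with 7 of the other settings, with adjusted p-values of 1.657e-06 (DESeq2) to 0.0487, and over all settings these ran from 1.657e-06 to 0.599. The call at EB4 was lost without KO replicate 2 (log2 1.09, adjusted p 0.108) and that at EB5 without KO replicate 2 (1.39, 0.0704), while that at EB8 held without any 1 library. No exon of Gtf2a1 overlaps an exon of another annotated gene.

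Gtf2a2, the small TFIIA subunit, showed no such difference. Its level was 1489 and 1561 in WT ES cells against 1551 and 1504 in KO ES cells, and 1126 and 1070.4 against 1053 and 1216 at EB8, with a log2 difference of 0.04 ± 0.15 and an adjusted p of 0.867. Gtf2b (TFIIB, chr3:142428190-142446567) counted 1201 and 1007 in WT ES cells, 1347 and 1271 in KO ES cells. By EB8 the WT libraries gave 1536 and 1164 and the KO libraries 1182 and 1647. Its differences between genotypes ran from 0.06 at EB8 to 0.25 in ES cells on the log2 scale, none of them called.

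Tbpl1 (ENSMUSG00000071359, chr10:22423685-22451744, minus strand) encodes TRF2 (TLF), a TBP-related factor that binds TFIIA. In WT it counted 1309.7 and 929.6 in ES cells, 1191 and 1543 at EB4, 1357 and 1679 at EB5 and 1967 and 2181 at EB8. In KO the same stages held 1552 and 1298, 1353 and 1300.4, 1414 and 1132, and 1324 and 1439. WT thus reached its highest values at EB8, above all KO libraries, whereas KO values overlapped between the stages. The WT rise from ES to EB8 was 0.91 ± 0.21 on the log2 scale (adjusted p 0.0037) and the KO change was -0.04 ± 0.21 (0.901). The difference of these changes was -0.95 ± 0.30, with an adjusted p of 0.0705, and that between genotypes at EB8 was -0.59 ± 0.21 (1.50-fold lower, adjusted p 0.0626), so neither was called. By DESeq2 both were (0.029 and 0.0351). Exons of Slc2a12 on the other strand cover 12.4% of the Tbpl1 exon bases.

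**Figure D3:**
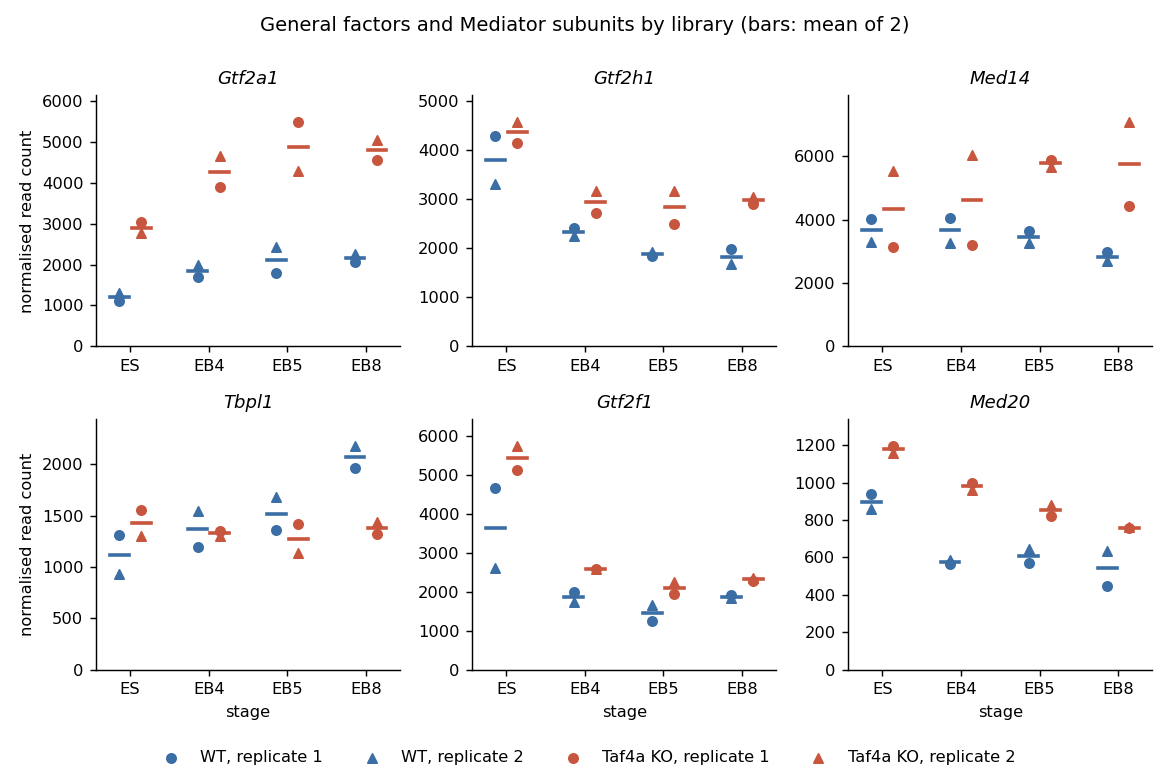
Normalised read count of 6 general factor and Mediator genes in each library (circle, replicate 1; triangle, replicate 2) by stage, WT in blue and KO in red, with bars at the mean of 2. KO points of Gtf2a1 lie above all WT points, and Tbpl1 separates at EB8, where WT reads 1967 and 2181 and KO 1324 and 1439.

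For TFIIE and TFIIF no gene was called between genotypes at any stage, and the median differences of the 4 genes ran from -0.008 at EB5 to 0.23 at EB8. Gtf2f1 (chr17:57142826-57150723) counted 4685 and 2605 in WT ES cells and 5142 and 5763 in KO ES cells, a difference of 0.64 ± 0.23 with an adjusted p of 0.317. Its KO libraries lay above its WT libraries at all 4 stages, and no stage was called. The same gene fell from ES to EB8 in both genotypes, to 1916 and 1839 in WT (log2 -0.90, adjusted p 0.0073) and to 2278 and 2371 in KO (log2 -1.23, 2.34-fold, adjusted p 0.0017). Without WT ES replicate 1 the WT fall was 0.47 and its adjusted p 0.0695.

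Gtf2e2 (chr8:34842386-34887645) lies on a chromosome whose median level was high, by 0.402 to 0.433 on the log2 scale, in replicate 1 of each WT embryoid body group, beside -0.185 to 0.012 in the 13 other libraries. Its WT values were 3853 and 2974 at EB4, 4022 and 2634 at EB5 and 2289 and 1633 at EB8, replicate 1 being the higher in each pair. The WT fall from EB4 to EB8 was -0.81 ± 0.24 (adjusted p 0.0254) and lost its call without EB4 replicate 1 (-0.62, 0.182) or EB8 replicate 2 (-0.56, 0.204). Med26, also on chromosome 8, was likewise higher in WT replicate 1 at these 3 stages, with 1252 against 771 at EB4. The part of this chromosome in these values was not tested.

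Within TFIIH, Gtf2h1 (ENSMUSG00000006599, chr7:54051473-54079170), a structural core subunit, was called between genotypes at EB8. WT libraries held 1972 and 1668 normalised reads and KO libraries 2902 and 3043, which do not overlap. The difference was 0.71 ± 0.17 on the log2 scale, 1.64-fold, with an adjusted p of 0.0107. It was lost without WT EB8 replicate 2 (0.59, 0.0908) or KO EB8 replicate 2 (0.68, 0.0591). In ES cells the genotypes overlapped, with 4281 and 3295 in WT and 4146 and 4559.9 in KO. Gtf2h1 fell from ES to EB8 by 1.05 on the log2 scale in WT (2.07-fold, adjusted p 0.00039) and by 0.55 in KO (1.46-fold, adjusted p 0.0240). The difference of these falls was not called.

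Between the ES state and EB8, all 6 TFIIH core genes fell in KO and 4 of 6 in WT, beside 18% and 22.8% of all genes called lower. Their log2 changes were -0.94 to -0.55 in KO and -1.05 to -0.38 in WT, where Ercc2 (-0.66, adjusted p 0.0925) and Gtf2h2 (-0.38, 0.117) did not pass. Gtf2h3 fell from 3304 and 3066 to 1580.5 and 1745 in KO, a log2 change of -0.94 ± 0.17 (1.92-fold, adjusted p 0.0013), and from 2858 and 2148 to 1795 and 1637 in WT (-0.53, 0.0219). It was also lower at EB8 than at EB4 in KO (-0.53, adjusted p 0.0476), a call that was lost when any 1 of the 4 libraries was left out (adjusted p 0.103 to 0.205). Ercc2, the XPD helicase, shares 42.7% of its exon bases with other genes, mostly on the other strand.

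The head of Mediator, which touches the polymerase and TFIIB, included 1 gene called between genotypes. Med20 (ENSMUSG00000092558, chr17:47748531-47761367) held 567 and 586 normalised reads in WT EB4 libraries and 1000.0 and 962 in KO EB4 libraries. Its difference there was 0.77 ± 0.18 (1.70-fold, adjusted p 0.0333), and it was lost when any 1 of these 4 libraries was left out (adjusted p 0.0963 to 0.203). At the other stages the KO libraries were also the higher ones, with log2 differences of 0.49 at EB5 and 0.51 at EB8 that were not called. Gm20517 and Gm9183 share 28.4% of its exon bases. Med17, the central head scaffold, counted 3167 and 2111 in WT ES cells, 3278 and 3238 in KO ES cells. By EB8 WT libraries were at 1922 and 1738 and KO libraries at 2437 and 2194. It fell from ES to EB8 by 0.50 on the log2 scale in WT (adjusted p 0.0363) and by 0.49 in KO (0.0460), and was called between genotypes at no stage.

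In the middle, which links head and tail, no gene was called between genotypes. Med1, the subunit that binds nuclear receptors, held 2574 and 4282 in WT ES cells, 3502 and 3069.7 in KO ES cells. The EB8 libraries held 3966 and 3167 (WT), then 4357 and 3547 (KO). Its differences between genotypes were -0.02 to 0.37 on the log2 scale, with a SE of 0.23. Med10 was nearly uncounted, at 0.9 to 39.1 normalised reads per library, where 1 read is worth 0.715 to 1.28. Its values fell in WT from 39.1 and 30.3 in ES cells to 5.3 and 6.4 at EB8 (log2 -2.39 ± 0.80, adjusted p 0.0279), a call that was lost without any 1 of these libraries. Of its exon bases 96.3% lie under exons of Gm17282 on the opposite strand. The kit does not mark strand and the use of strand in counting is not stated, so reads of the 2 genes cannot be told apart.

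The tail, where most activators bind, had Med14 called at EB8. Med14 (ENSMUSG00000064127, chrX:12252495-12339199, minus strand) is the scaffold that holds head, middle and tail together. Its EB8 libraries held 2981 and 2679.8 (WT) and 4412 and 7065 (KO). At EB5 WT held 3624 and 3260.3 and KO 5877 and 5669, and in ES cells and at EB4 the KO replicates straddled WT, with 3145 and 5542 against 4031 and 3296, and 3199 and 6039 against 4048 and 3265. The EB8 difference was 0.98 ± 0.32 (1.97-fold, adjusted p 0.0428). Without KO EB8 replicate 2 it was 0.64 with an adjusted p of 0.274, and the call was also lost without either WT EB8 library (1.06, 0.105, and 0.91, 0.168). Genes of the X chromosome had a median of 0.351 to 0.554 in 5 libraries (every KO library of replicate 2, and replicate 2 of WT ES cells), beside -0.304 to -0.141 in the other 11. The part of the X chromosome level in the Med14 value was not tested.

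Med23, named after its values were seen, was 1 of the 4 genes with an unadjusted p under 0.05 in ES cells, with Gtf2a1, Med12l and Gtf2f1. It held 2585 and 1751 in WT and 3759.7 and 2835 in KO (0.62 ± 0.20, unadjusted p 0.0085, adjusted p 0.236). Med25, the VP16-binding subunit, was called lower at EB8 than in ES cells in KO, from 4219.6 and 3815 to 2718 and 1634 (log2 -0.93 ± 0.31, adjusted p 0.0330). Without KO EB8 replicate 2 its change was -0.56 and its adjusted p 0.258.

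In the kinase module the genes did not move together. Cdk8 (ENSMUSG00000029635, chr5:147042806-147114450), its kinase, was level between genotypes in ES cells, with 2644 and 2424 in WT and 2649.8 and 2416 in KO. WT then held 3134 and 2636 at EB4, 2629 and 2820.0 at EB5 and 3290.0 and 3303 at EB8. KO held 2484 and 2306, 2312 and 2000.5, and 1985 and 2064 at the same stages. From EB4 on every KO library was below every WT library of its stage. The differences were -0.26 at EB4, -0.34 at EB5 and -0.70 ± 0.14 at EB8, where the level was 1.63-fold lower and the adjusted p 0.0041. The EB8 call held when any 1 library was left out. It was lost when all KO libraries of replicate 1 (-0.68, 0.0838) or of replicate 2 (-0.73, 0.0647) were left out together. From ES to EB8 Cdk8 rose by 0.38 in WT (adjusted p 0.0418) and changed by -0.32 in KO (adjusted p 0.0904). The interaction, -0.70 ± 0.20, had an adjusted p of 0.0524 and passed with 5 of the other settings and without WT ES replicate 1 (0.0409).

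Ccnc, cyclin C, the partner of Cdk8, moved the other way between genotypes. The WT libraries of EB4 held 829.7 and 986 and the KO libraries 1358 and 1623, a difference of 0.71 ± 0.18 (1.64-fold, adjusted p 0.0429), and this call was lost without any 1 of these 4 libraries (adjusted p 0.0587 to 0.317). The KO libraries were the higher ones at the other 3 stages too, by 0.18 in ES cells, 0.53 at EB5 and 0.43 at EB8, none called. Within genotypes Ccnc fell from ES to EB8, from 1708 and 1503 to 991 and 836 in WT (-0.81, adjusted p 0.0033) and from 1860.4 and 1772 to 1067 and 1410.4 in KO (-0.57, 0.0292). Cdk19, the paralogue of Cdk8, counted 1100.5 and 1429 at EB8 in WT, beside 1131 and 1266 for KO, and was called at no stage.

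**Figure D4:**
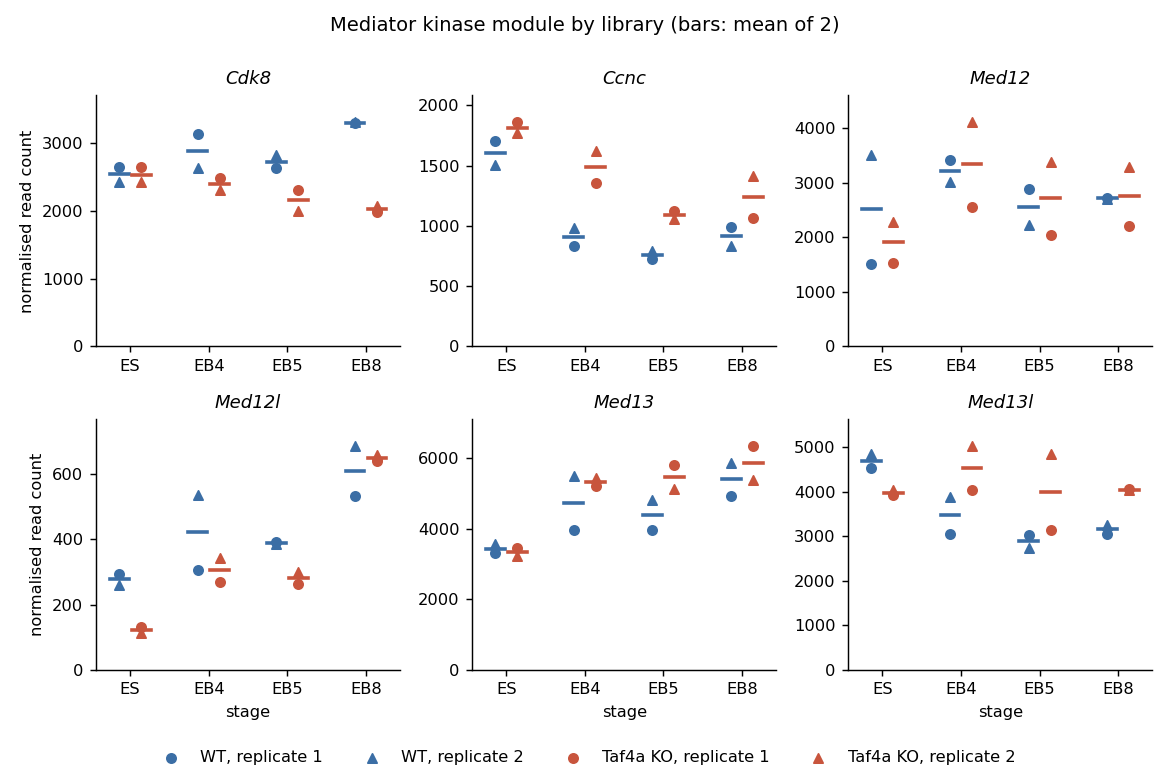
Normalised read count of the 6 kinase module genes in each library (circle, replicate 1; triangle, replicate 2) by stage, WT in blue and KO in red, with bars at the mean of 2. Cdk8 parts between genotypes with stage to EB8, where WT reads 3290.0 and 3303 and KO 1985 and 2064, and Med12l climbs in both.

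Med12l and Med12 encode alternative subunits that activate the kinase. Med12l (ENSMUSG00000056476, chr3:58810900-59122332) was at 294 and 261 in WT ES cells and at 130.3 and 113 in KO ES cells, then at 307 and 536 against 269.9 and 343 at EB4, 393 and 385 against 264 and 299 at EB5, and 534 and 688 against 639 and 658 at EB8. The KO libraries were thus below WT in ES cells and at EB5 and overlapped with WT at EB4 and EB8. The ES difference was -1.18 ± 0.27 (2.27-fold lower, unadjusted p 0.00092) with an adjusted p of 0.121, and DESeq2 called it (0.00438). Med12l rose from ES to EB8 by 2.41 ± 0.27 in KO (5.31-fold, adjusted p 8.6e-05) and by 1.13 ± 0.27 in WT (2.19-fold, adjusted p 0.0050). The interaction was 1.28 ± 0.39 with an adjusted p of 0.0636. Without WT EB8 replicate 2 the WT rise was 0.95 with an adjusted p of 0.0504. In KO it was also higher at EB8 than at EB4 (1.09, adjusted p 0.0171), a call lost without KO EB4 replicate 1 (0.92, 0.109), KO EB8 replicate 1 (1.11, 0.0704) or KO EB8 replicate 2 (1.07, 0.081). Exons of Igsf10 on the other strand cover 16.1% of its exon bases.

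Med12 (chrX:98469369-98492804) tracked the X chromosome level by library. In the groups with a high library, that library had the higher value in 5 of 5, namely 3502 against 1516 in WT ES, 2288 against 1521 in KO ES, 4105 against 2558 in KO EB4, 3382 against 2036 in KO EB5 and 3283 against 2210.4 in KO EB8. Without such a library the WT pairs lay closer, at 3405 and 3015, 2875 and 2223, and 2719 and 2707. Differences between genotypes ran from -0.30 to 0.05 on the log2 scale with a SE of 0.38, the widest in the module, so that a change of this size could not be told from the spread.

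Med13 and Med13l encode alternative subunits that tether the module to the core complex. Med13 held 3307 and 3552 in WT ES cells and 4931 and 5867 at EB8, and 3443 and 3222 against 6355 and 5366 in KO. It rose in both genotypes, by 0.65 (adjusted p 0.0094) in WT and by 0.81 ± 0.18 (1.75-fold, adjusted p 0.0038) in KO. Med13l went from 4536 and 4857 to 3052 and 3261 in WT, a change of -0.57 (adjusted p 0.0300), and stood at 3922 and 4042 and then 4051 and 4046 in KO (0.02, 0.936). Differences of either gene between genotypes were called at no stage.

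Med13 is among 7 genes of the list on chromosome 11, with Med1, Med7, Med9, Med11, Med24 and Med31, which encode subunits of the head, middle, tail and kinase module. The median level of that chromosome was 0.171 to 0.268 in the 4 KO libraries of replicate 1 and -0.132 to -0.009 in the 12 others. In KO, replicate 1 exceeded replicate 2 in 27 of the 28 pairs of these genes and stages. These pairs are not independent, since same-numbered KO libraries resembled each other across stages. The matching share over all genes, or over all genes of the chromosome, was not computed, so the count is not read as particular to the list. Med9 held 1128 against 831 in ES cells, 1072 against 560.2 at EB4, 930.1 against 594 at EB5 and 1038 against 656 at EB8. At EB4 the chromosome medians of these KO libraries were 0.186 and -0.085 on the log2 scale, a narrower gap than that of Med9. The part of the chromosome level in these values was not tested. Over the other chromosomes, which hold 34 of the genes, library medians ran from -0.184 to 0.179.

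To follow the machinery through differentiation, EB8 was compared with ES cells within each genotype. In WT 18 genes were called, 5 higher and 13 lower, or 40% of the list beside 46.8% of all genes. In KO 19 were called, 3 higher and 16 lower, 42.2% beside 37.7%. By direction, 28.9% of the list was called lower in WT beside 22.8% of all genes, and 35.6% in KO beside 18%. Called higher were 11.1% in WT beside 24%, and 6.67% in KO beside 19.7%. The median change was -0.29 in WT and -0.43 in KO, beside 0.009 and 0.02 over all genes. Without WT ES replicate 1 the WT count was 9 and without WT EB8 replicate 2 it was 8. Without KO ES replicate 1 or 2 the KO count was 5 or 7, and without KO EB8 replicate 1 or 2 it was 10 or 7. With upper-quartile rescaling the KO count was 11. These counts include the difference in depth between ES and embryoid body libraries, whose part in them was not tested. In WT, chromosome levels also differed between these stages. Chromosome 8 stood at -0.119 and -0.185 in ES cells and at 0.404 and -0.11 at EB8. Chromosome X stood at -0.248 and 0.441, then at -0.18 and -0.227. Differences between replicates 1 and 2 correlated at -0.048 between WT ES cells and WT EB8, and at 0.241 in KO. Their part in the WT changes and the interactions was not tested.

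Genes called in both genotypes numbered 13. Gtf2a1, Med12l and Med13 were higher at EB8, and Ccnc, Ercc3, Gtf2f1, Gtf2h1, Gtf2h3, Gtf2h4, Med11, Med17, Med18 and Med20 were lower. Gtf2a1 rose by 0.84 ± 0.19 in WT (1.80-fold, adjusted p 0.0030) and by 0.73 ± 0.19 in KO (1.65-fold, adjusted p 0.0097), the KO call being lost without KO ES replicate 2 (0.66, 0.0661) or KO EB8 replicate 2 (0.65, 0.064). In WT alone Cdk8, Gtf2e1, Med10, Med13l and Tbpl1 passed, and in KO alone Ercc2, Gtf2h2, Med25, Med28, Med29 and Med8. Being called in a single genotype is not a difference between them, and the interaction of genotype with the change from ES to EB8 called 0 of 45 genes, beside 7.29% of all genes. By edgeR 0 and by DESeq2 3 (Cdk8, Med12l and Tbpl1) passed this interaction, beside 6.91% and 14.5% of all genes, and 3 of 45 had an unadjusted p under 0.05 beside 25.1% of all genes.

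By role, the calls from ES to EB8 were set against the shares of all genes called higher (24% in WT, 19.7% in KO) and lower (22.8% in WT, 18% in KO). Of the 6 kinase module genes, 3 were called higher and 2 lower in WT, and 2 higher and 1 lower in KO, with median changes of 0.31 and 0.28. Of the 3 TFIIA, TFIIB and TBP-related genes, 2 were called higher in WT and 1 in KO, and none lower. In the head 4 of 7 genes were called lower in WT and 5 in KO, with medians of -0.50 and -0.63, and for TFIIE and TFIIF 2 of 4 and 1 of 4. In the tail none of 10 genes was called in WT, where the median was -0.11, and 3 were called lower in KO, where it was -0.43. In the middle 1 of 9 genes was called lower in WT, Med10, and none in KO.

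**Figure D5:**
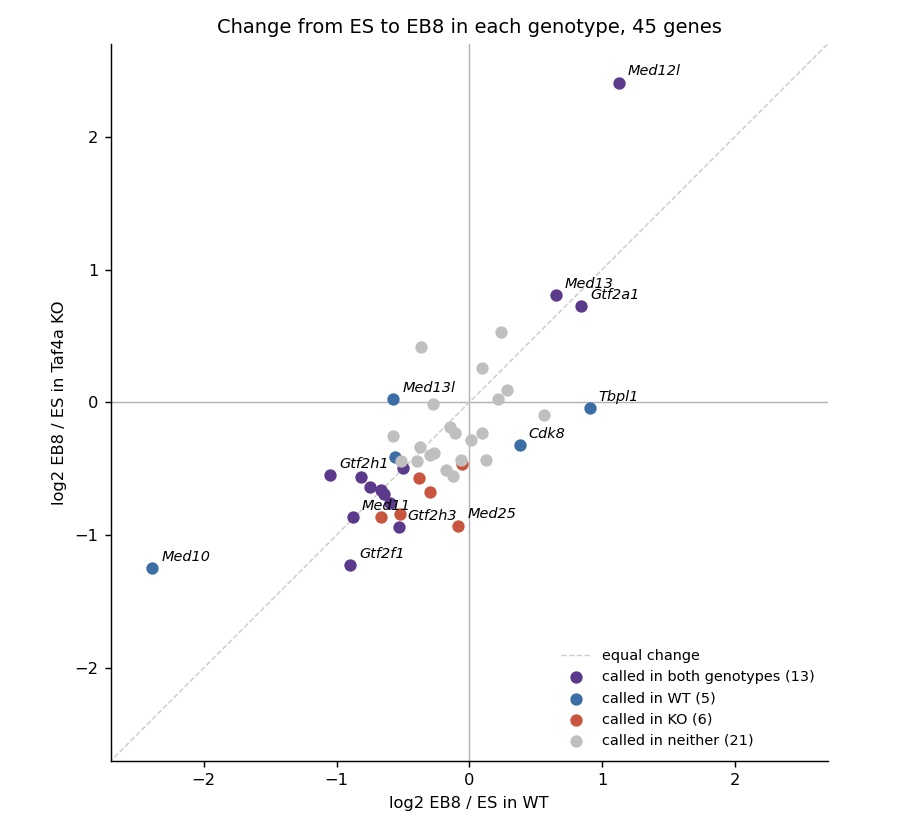
Log2 change from ES to EB8 in WT (horizontal) against KO (vertical) for the 45 genes, coloured by the genotype in which the change passed an adjusted p of 0.05. The 13 genes called in both lie in the lower left (10) and upper right (3), and Cdk8 and Tbpl1 lie right of 0 in WT and below 0 in KO.

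Lower values were already seen at EB4, before retinoic acid. Every EB4 library lay below every ES library for 22 genes in WT (48.9% beside 27.6% of all genes) and for 25 in KO (55.6% beside 28.2%). Both EB4 libraries lay above ES for 4 genes in WT (Gtf2a1, Med12l, Med13 and Med26) and 5 in KO (Gtf2a1, Med1, Med12, Med12l and Med13), 8.89% beside 26.5% and 11.1% beside 28.1%. From EB4 to EB5, 10 genes in WT and 17 in KO were lower without overlap (22.2% beside 20%, and 37.8% beside 24.2%). From EB5 to EB8, 17 genes in WT and 7 in KO were higher without overlap (37.8% beside 28.6%, and 15.6% beside 22.3%). The 17 in WT included Cdk8, Ccnc, Gtf2b, Med13 and Tbpl1. These steps were described after the values were seen and were not tested.

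The comparison of EB8 with EB4 shares its EB8 libraries with that of EB8 with ES cells, and fewer of these genes were called in it. In WT 3 were called (6.67% beside 27.2% of all genes), Tbpl1 and Med28 higher and Gtf2e2 lower, and in KO 2 (4.44% beside 18.5%), Med12l higher and Gtf2h3 lower. Tbpl1 was higher at EB8 by 0.61 ± 0.21 in WT (adjusted p 0.0472), a call that was lost without WT EB4 replicate 1 (0.42, 0.291) or either WT EB8 library. Med28 went from 912 and 850.3 to 1229.7 and 1520.4 in WT (0.63 ± 0.17, 1.55-fold, adjusted p 0.0163), which was lost without either WT EB4 library or without WT EB8 replicate 2 (0.48, 0.144). The interaction of genotype with this step called 0 of 45 genes, beside 2.75% of all genes, with 0 by edgeR and by DESeq2 and 2 with an unadjusted p under 0.05 beside 16.5% of all genes.

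Other parts of the machinery were counted for comparison. Among 8 general factor and kinase genes outside the list (6 tested, among them Gtf2a2, Cdk7 and Cdk19) none was called between genotypes at any stage. Of 17 identifiers for TFIID, 2 were higher in KO at EB4 (11.8% beside 6.12% of all genes called) and 3 at EB8 (17.6% beside 22.9%). At EB8 these were Taf7 (1787 and 1083 in WT, 2965 and 3324 in KO, log2 1.17), Taf4b (479.9 and 343 against 832 and 916, log2 1.10), the paralogue of Taf4a, and Taf5 (818 and 949.7 against 1544 and 1526, log2 0.80), with adjusted p-values of 0.0057, 0.0040 and 0.0082. Tbp was called at no stage.

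RNA polymerase II subunits, 12 in all, gave 1 call at EB4 (8.33% beside 6.12% of all genes) and 2 at EB8 (16.7% beside 22.9%), all higher in KO. Polr2a, the largest subunit, held 11229.9 and 12179 at EB8 in WT, beside 26223 and 24147 for KO (1.11 ± 0.31, adjusted p 0.0226), and Polr2e 2330.2 and 2382 against 3681 and 3278 (0.56, 0.0194). Among 17 pausing and elongation factors tested, 1 was higher and 1 lower at EB4, 1 higher at EB5 and 2 higher at EB8 (11.8%, 5.88% and 11.8%, beside 6.12%, 4.34% and 22.9% of all genes). Hexim1, an inhibitor of the P-TEFb kinase, held 1264 and 1263 in WT libraries of EB8, beside 4304 and 3159.5 for KO (1.54 ± 0.19, adjusted p 0.000275), and Supt5h, a subunit of DSIF, 5969.9 and 5996 against 9407 and 8749 (0.60, 0.0104). Polr2a and Hexim1 lie on chromosome 11, whose level was high in KO replicate 1.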

How the data were processed

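The 45 genes and the other lists were chosen with earlier results of these data known. Per the labels and the study's methods, the authors made poly-A libraries with an unstranded kit, sequenced single-end reads and deposited 1 table of gene signal, read counts divided by a size factor of each library. The submitters' processing notes name CASAVA (1.7 and 1.8), TopHat2 2.0.10, HTSeq 0.5.4p3, DESeq2 1.0.19 and build mm9 (NCBI37). Which annotation was counted, and whether with strand, is not given in the sources used here.

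In every library 100.0% of the deposited values were whole multiples (within 0.01) of a step of 0.715 to 1.28, and dividing by it gave whole reads and the depth. Counting error alone is small at these depths except for Med10. Groups were taken from the labels. All 16 libraries entered 1 limma fit (3.58.1, R 4.3.3) of 8 group means on log2(value + 1), eBayes with trend, over 16124 genes with a mean of at least 10; it had 8 residual and 4.27 prior degrees of freedom. P-values were adjusted by Benjamini-Hochberg over these genes (threshold 0.05, with no fold threshold), and the scale understates changes of low genes. The code was tested on simulated data. Changes were compared between genotypes by interaction terms.

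Alternatives were other pseudocounts (0.1 and 5), filters (none, or a minimum mean of 50), scaling by upper quartile or quantiles, only the compared groups, the replicate number as a block, a correlation among libraries that share genotype and number, edgeR 4.0.16 and DESeq2 1.42.0 on the recovered reads, and leaving out each library. Leaving out all libraries of a genotype and number, and the steps between neighbouring stages, were added after seeing the data. On recovered reads edgeR called 0, 811, 603 and 3546 of all genes between KO and WT in ES cells and at EB4, EB5 and EB8, and DESeq2 469, 2077, 1719 and 4626.

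Named genes were every gene of the list called between genotypes, the 3 largest rises and 3 largest falls called in each comparison of stages, the kinase module, Med1, Med14, Med17, Gtf2a1, Gtf2b and Tbpl1, genes on chromosomes whose level differed between libraries of a group, and up to 3 in each direction at EB8 from the other lists. Gtf2a2, Cdk19, Cdk7, Tbp, Med23 and others outside this rule were named after their values were seen. Gene positions and exon overlaps are from GENCODE M1 (NCBI37), and chromosome levels are library medians, over the genes of a chromosome, of the log2 value relative to the gene's own mean. Upstream sequences are from RefSeq and were placed on NCBI37 by an exact match found once on the chromosome.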

Additional observations from a re-analysis of the deposited data

How the results depend on the processing

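No direction reversed in any alternative for the 31 gene and comparison pairs followed. Of these, 25 were called in the main fit, where a reversal is unlikely. Genotype differences of Med1, Med17, Gtf2b, Med12 and Med13l, also named above, were not followed in this way. For the 25 pairs called, 359 values kept the call and 115 lost it, and for the 6 not called, 103 stayed uncalled and 23 gained a call. In ES cells 1 gene was called between genotypes with a pseudocount of 0.1 or 5, a minimum mean of 50, rescaling by upper quartile, the replicate block or the correlation within genotype and number, and 2 by DESeq2. Fitting only the compared groups, which leaves fewer samples to estimate the spread, called 0 at EB4, 0 at EB5, 7 for EB8 against ES in WT, 0 for EB8 against EB4 in WT and 1 in KO. At EB5 quantile normalisation called 2 and DESeq2 called 2 (beside 10.7% of all genes), and at EB8 quantile normalisation called 8. For EB8 against ES in KO upper-quartile rescaling called 11 and quantile normalisation 12, and for EB8 against EB4 in KO no filter, upper-quartile rescaling and quantile normalisation each called 1. For the interaction with EB8 against ES, 1 was called with a pseudocount of 5, a minimum mean of 50, either rescaling or the replicate block, and 3 with the correlation or DESeq2; the cause was not tested. Its median over the list was -0.12, and 0.08 and 0.07 with upper-quartile and quantile scaling. Apart from edgeR, DESeq2 and the replicate block, shares of all genes called are not given for these settings or for fits without a library. Counts of the list under them are thus not set against all genes and are not read as results about the list.

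Leaving out libraries gave 0 to 2 calls between genotypes in ES cells, 0 to 2 at EB4, 0 to 1 at EB5 and 1 to 4 at EB8, 7 to 15 for EB8 against ES in WT and 1 to 20 in KO, 0 to 3 for EB8 against EB4 in WT and 0 to 2 in KO, and 0 to 2 and 0 to 0 for the interactions with EB8 against ES and against EB4. A group left with a single library is assumed there to vary like the others.

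Replicate numbers did not pair libraries across genotypes at the embryoid body stages. Deviations of same-numbered WT and KO libraries correlated at 0.335 in ES cells, -0.058 at EB4, -0.209 at EB5 and -0.133 at EB8. Those of WT ES cells also correlated at 0.281 with KO EB4 and 0.368 with KO EB5, and at 0.056 with KO EB8. Between stages, correlations ran from 0.233 to 0.422 within KO and from 0.523 to 0.605 among the WT embryoid body stages. Between these and WT ES cells they ran from -0.179 to -0.048. With the replicate block the calls were 1, 3, 1 and 4 between genotypes in order of stage (0.112%, 8.45%, 6.1% and 25.3% of all genes), and 2 for EB8 against EB4 in WT (29.2%), where Tbpl1 was lost (adjusted p 0.0511 by limma). The number of calls moved by over 1.5 times only in ES cells and in the interaction with EB8 against ES, where it was 1 (9.11%).

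With 2 libraries a group, differences well above the printed SE could miss the threshold, as for Gtf2f1 in ES cells (0.64 ± 0.23), and Med10 rests on few reads.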

Other observations

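Med25 differed between the KO libraries of EB4 and of EB8 but little between those of EB5 and of ES cells. KO replicate 2 held 1840.2 normalised reads at EB4 and 1634 at EB8, and replicate 1 4068 and 2718, whereas at EB5 they held 2829.5 and 2972 and in ES cells 3815 and 4219.6. The WT libraries ran from 2640.0 to 3583.
Cdk19, outside the list, held 533 and 904 at EB4 in WT, beside 1103 and 1446 for KO, and at EB5 762 and 637 beside 1056 and 1532 (adjusted p 0.0811 and 0.0925, limma), while at EB8 it did not separate.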
